A study of Mus musculus with 6 samples.

Results

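The 6 genes described here encode the enzymes that bring ammonia into the urea cycle and run most of its steps: *Nags*, *Cps1*, *Otc*, *Asl*, *Arg1* and *Glud1*. They were taken by name from the array annotation, with the brightest probe set per gene where there were several, and all 6 were found among the 19938 genes measured. Each had a single probe set with 1 gene symbol. RNA came from the livers of 3 Lkb1KOlivad mice (numbered B253, B304 and B305) and of 3 control mice (numbered B256, B267 and B302), all female by their labels, with 1 Affymetrix mouse gene array per mouse. The mutant mice were Lkb1 fl/fl mice of FVB/N background carrying TTR-CreTam, a Cre recombinase that tamoxifen activates and that the transthyretin promoter confines to hepatocytes, and the control mice were their Cre-negative Lkb1 fl/fl littermates. Adult mice of both groups received tamoxifen, and the study describes these livers as fasted. The age of these mice, the tamoxifen schedule and the hours of fasting are not in their labels. Each liver sample also held RNA of other cells, in which this Cre is not meant to act.

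Hepatocytes turn the ammonia released from amino acids into urea. In the mitochondrial matrix, N-acetylglutamate synthase (Nags) makes the activator that carbamoyl phosphate synthetase (Cps1) needs, Cps1 captures ammonia as carbamoyl phosphate, and ornithine transcarbamylase (Otc) joins this to ornithine to give citrulline. In the cytosol, argininosuccinate synthase (Ass1) adds aspartate, argininosuccinate lyase (Asl) splits off fumarate to leave arginine, and arginase (Arg1) releases urea and returns ornithine. Glutamate dehydrogenase (Glud1) frees ammonia from glutamate in the matrix, and the pathway as a whole is most abundant in the hepatocytes around the portal vein and is known to respond to fasting and protein intake. The comparison asks whether the mRNAs of this pathway differed between livers with and without Lkb1, a kinase whose loss the study relates to amino acid catabolism.

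On the log2 scale of the RMA signal (a normalized brightness of the probes of a gene), *Stk11*, which encodes Lkb1, lay between 6.42 and 6.52 in the mutant livers and between 7.96 and 8.24 in those of the control mice, for a log2 fold change of -1.64 ± 0.12 (SE, adjusted p = 0.00705 from limma). It was the 1 gene of 19938 that passed an adjusted p of 0.05, and it lost this call without any 1 mouse other than control B302 (adjusted p up to 0.139 from limma). The array medians lay between 5.03 and 5.08. The 13 measured hepatocyte markers had signals of 9.99 to 12.99, while 3 Y-linked genes, which female mice lack, read 2.59 to 3.36. All 6 enzymes stood above that range on every array, the lowest being *Nags* at 6.58.

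The promoters of 3 of the 6 genes, those of *Otc*, *Nags* and *Glud1*, were found in a RefSeq table of the GRCm38.p6 build, and they are shown because they differ widely in base composition. Each sequence below is the plus strand, 5′ to 3′, ending before the first base of the annotated gene, with the CpG dinucleotides in capitals, and it leaves out bases that the annotation places inside a protein-coding gene. *Otc* is at chrX:10252055-10252229, *Nags* at chr11:102145263-102145512 and *Glud1* at chr14:34310652-34310726.
Otc: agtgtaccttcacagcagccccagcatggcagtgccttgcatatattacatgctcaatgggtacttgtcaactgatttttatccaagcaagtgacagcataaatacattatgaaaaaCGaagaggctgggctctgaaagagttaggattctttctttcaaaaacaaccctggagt
Nags: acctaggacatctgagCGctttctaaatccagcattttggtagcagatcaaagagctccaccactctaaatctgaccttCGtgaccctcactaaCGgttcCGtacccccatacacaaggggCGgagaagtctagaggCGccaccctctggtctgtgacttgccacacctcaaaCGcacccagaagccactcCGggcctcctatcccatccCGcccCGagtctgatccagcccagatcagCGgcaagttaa
Glud1: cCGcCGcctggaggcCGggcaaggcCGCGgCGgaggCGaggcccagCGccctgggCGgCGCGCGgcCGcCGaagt

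Over the 250 bases before the table's start site, *Otc* had a GC content of 43.6% with 1 CpG, *Nags* 55.6% with 11 and *Glud1* 82.0% with 46, where the median of 32851 promoters was 52.4%. The *Glud1* window was richer in GC than 99.3% of these promoters. None of the 3 windows held, on either strand, the letters CGTCA (in 17.8% of all promoters), TTGCG (14.5%), CAAAGTC (3.84%), TGTTCT (16.1%), CACGTG (6.02%), CCAAT (33.8%) or TATAAA (12.4%), which says only that these letters are not in these windows.

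The mRNA of every one of the 6 enzymes had a mean slightly higher in the Lkb1KOlivad livers than in the controls, by a log2 fold change of 0.05 for *Cps1* to 0.36 for *Otc*, and no difference passed the test. By limma, 0 of the 6 enzymes were called at an adjusted p under 0.05, where 0.00502% of all genes were, and at an unadjusted p under 0.05, 0 of the 6 passed, where 3.03% of all genes did. The methods' t-test called 0 of the 6 and also 0 of all genes, so its count does not set the 6 apart. *Stk11* itself had adjusted p = 0.566 in this t-test. It is the unpaired t-test that the methods give for comparing groups in general, whereas for the arrays they name BRB-ArrayTools. The ranges of the mutant and control values were separate for 0 of the 6 genes, where 7.16% of all genes had such groups (3.46% with the mutant values above, 3.70% with them below). The median of the 6 log2 fold changes was 0.15, beside 0.00490 for all genes. It was 0.033 without control B302, 0.071 without mutant B253, 0.23 without control B256, 0.098 after quantile normalization and 0.24 with the mouse number series (two-hundreds or three-hundreds) as a term. A log2 fold change above 0 was found for 6 of the 6, beside 51.6% of all genes. Within the two-hundreds (B253 against B256 and B267) *Cps1* and *Glud1* were below 0, and within the three-hundreds (B304 and B305 against B302) *Nags* was. Each of the 6 had adjusted p = 0.9997 from limma. In bulk liver RNA, a change in the share of hepatocytes and a change of mRNA per hepatocyte cannot be told apart.

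**Figure D1:**
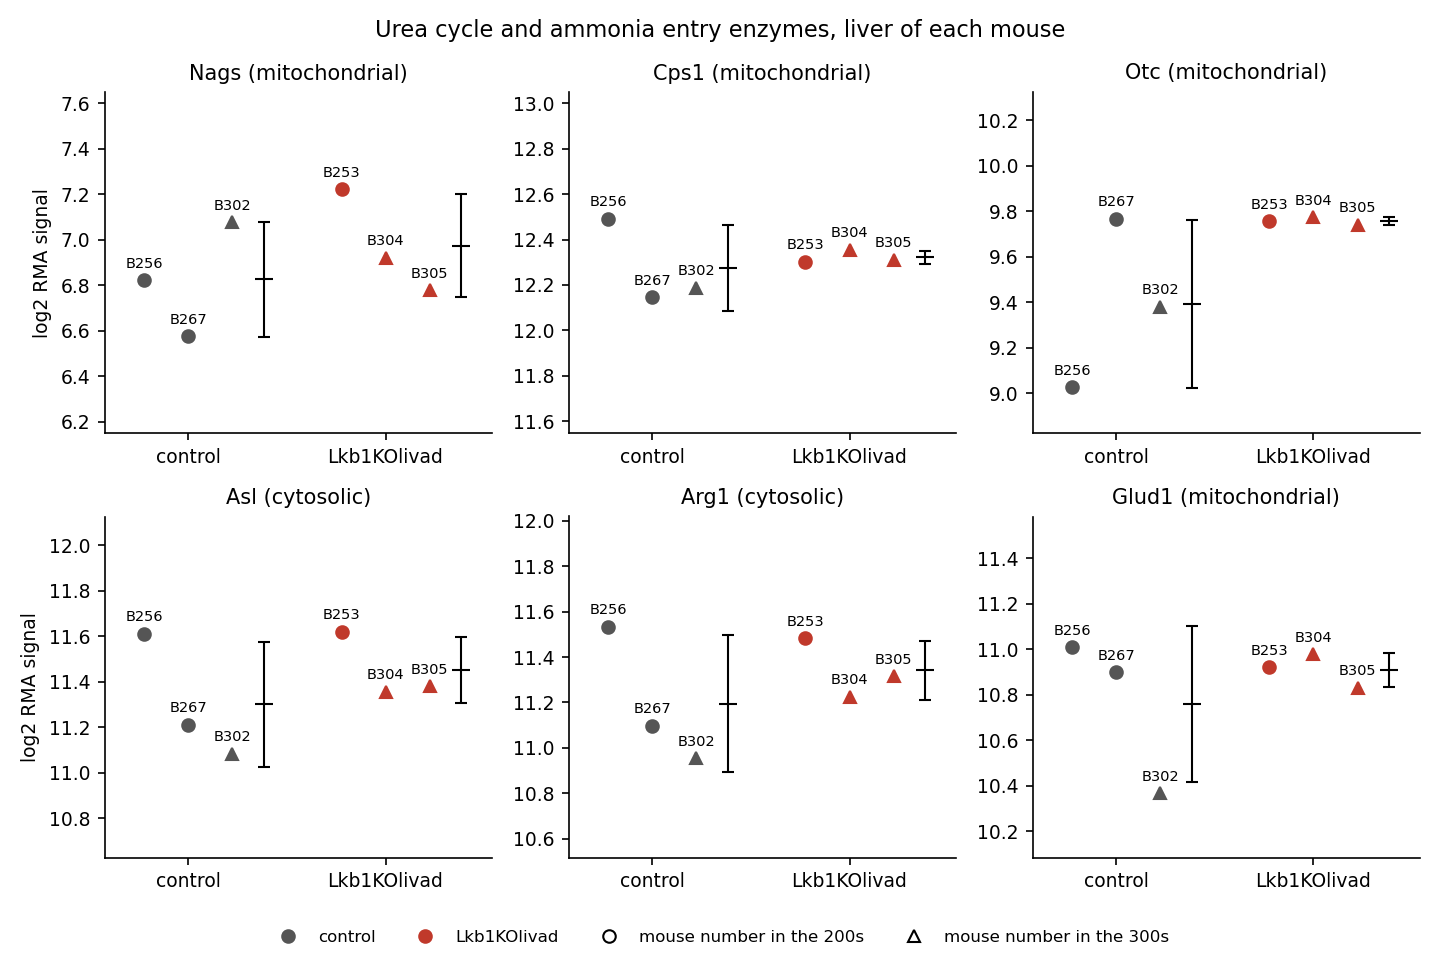
RMA signal (log2) of each of the 6 enzymes in the liver of each mouse, marked with its number, group means and SDs in black and symbols for the mouse number series. Every panel spans the same range of 1.5 on the log2 scale, and the 2 groups overlap in all 6, with the *Otc* mutant values between 9.74 and 9.77 against controls from 9.03 to 9.77.

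*Nags* makes N-acetylglutamate, without which Cps1 is inactive. Its log2 signal was 7.22 in mutant B253, 6.92 in B304 and 6.78 in B305, and 6.82 in control B256, 6.58 in B267 and 7.08 in B302. Mutant B253 was the highest of all and control B267 the lowest, and the groups overlapped. The log2 fold change was 0.15 ± 0.17 (SE, 95% interval -0.23 to 0.53), and the two-sided exact permutation test of 3 against 3 mice gave p = 0.5, where the smallest p it allows is 0.1. The direction turned between the mouse number series: B253 lay 0.52 above the mean of B256 and B267, while B304 and B305 together lay below B302, with a difference of -0.23. The log2 fold change was 0.02 without mutant B253 or without control B267, and 0.27 without control B302. The difference between the series was -0.75, with an unadjusted p of 0.0257 and an adjusted p = 0.733 from limma.

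*Cps1* captures ammonia and is among the most abundant proteins of the liver mitochondrion. Its log2 signal was 12.30 in mutant B253, 12.35 in B304 and 12.31 in B305, and 12.49 in control B256, 12.15 in B267 and 12.19 in B302. The 3 mutant values lay near each other, with an SD of 0.028, and inside the range of the controls, of which B256 was the highest. The log2 fold change was 0.05 ± 0.13 (SE, 95% interval -0.24 to 0.34), the smallest of the 6, and the 95% interval of the fold ran from 0.846 to 1.26. The exact permutation test gave p = 0.8. The direction turned with single mice: the log2 fold change was -0.017 without control B267, 0.0041 without control B302 and 0.16 without control B256. It was -0.016 in the two-hundreds and 0.14 in the three-hundreds.

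*Otc* forms citrulline and is encoded on the X chromosome. Its log2 signal was 9.76 in mutant B253, 9.77 in B304 and 9.74 in B305, and 9.03 in control B256, 9.77 in B267 and 9.38 in B302. The mutant mice were nearly level, with an SD of 0.017, whereas the controls spread over 0.74, and control B267 reached the mutant level. The mutant mean was 1.29 times the control mean (log2 fold change of 0.36, standard error 0.18, 95% interval of the fold 0.972 to 1.71), and the exact permutation test gave p = 0.3. Both mouse number series gave a like difference, 0.36 in the two-hundreds and 0.38 in the three-hundreds. Without control B267 the log2 fold change was 0.55 and the groups no longer overlapped, as was so for 16.5% of all genes without that mouse. Its unadjusted p was then 0.00604 and its adjusted p = 0.9991 from limma, and without control B256 the log2 fold change was 0.18.

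*Glud1* links glutamate to free ammonia and 2-oxoglutarate. Its log2 signal was 10.92 in mutant B253, 10.98 in B304 and 10.83 in B305, and 11.01 in control B256, 10.90 in B267 and 10.37 in B302. Control B302 stood below the other 5 mice, and all 3 mutant values fell inside the range of the controls. The log2 fold change was 0.15 ± 0.17 (SE, 95% interval -0.24 to 0.54, exact permutation test, p = 0.8). It was -0.04 without control B302 and 0.28 without control B256. B302 is the only control numbered in the three-hundreds. Accordingly the difference was -0.03 in the two-hundreds and 0.54 in the three-hundreds, and the test of that difference gave an adjusted p = 0.790 from limma.

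*Asl* and *Arg1* carry out the cytosolic steps after argininosuccinate. *Asl* had log2 signals of 11.62 in mutant B253, 11.36 in B304 and 11.38 in B305, and 11.61 in control B256, 11.21 in B267 and 11.08 in B302. *Arg1* had log2 signals of 11.48, 11.23 and 11.32 in these mutant mice, and of 11.53, 11.10 and 10.95 in these controls, in the same order. In both genes B253 and B256, 1 mouse of each genotype, were the highest, and the other 2 controls were the lowest. The log2 fold change was 0.15 for *Asl* (standard error 0.16, 95% interval -0.21 to 0.51, exact permutation test, p = 0.4). It was also 0.15 for *Arg1* (standard error 0.16, 95% interval -0.23 to 0.52, exact permutation test, p = 0.5). Without control B256 the log2 fold changes were 0.30 for *Asl*, 0.31 for *Arg1* and 0.16 for *Cps1*, and in these 3 of the 6 genes the groups no longer overlapped, as in 18.5% of all genes without that mouse. Without control B302 they were 0.041 for *Asl* and 0.026 for *Arg1*, and without mutant B253 0.066 and 0.075. Within the mouse number series, *Asl* differed by 0.21 in the two-hundreds and 0.29 in the three-hundreds, and *Arg1* by 0.17 and 0.32.

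**Figure D2:**
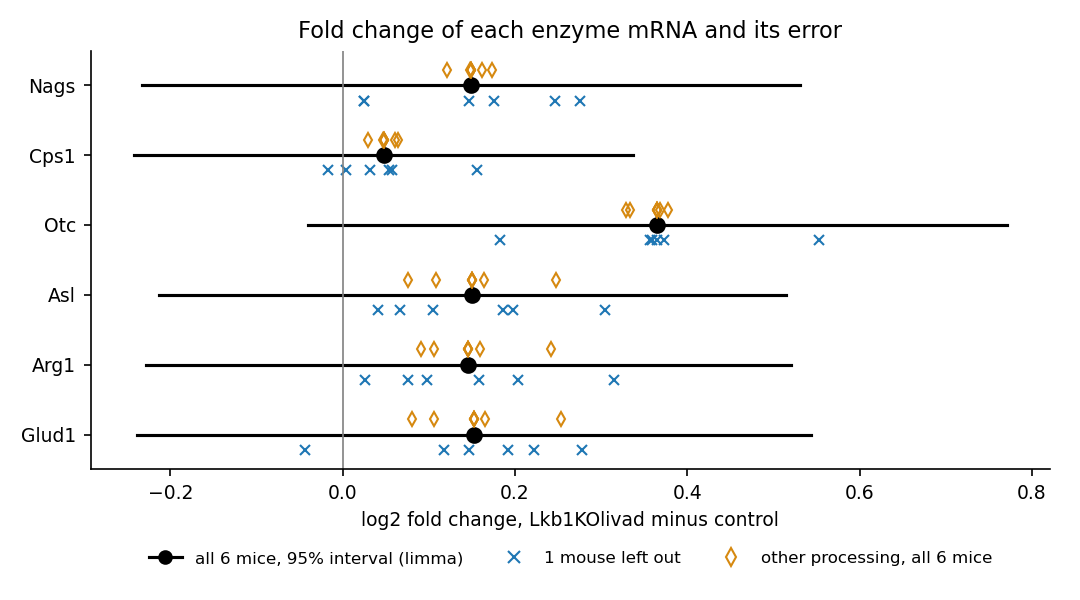
Log2 fold change (mutant minus control, horizontal axis) of each enzyme mRNA, with the 95% interval from limma in black, the values with 1 mouse left out as crosses and the values under other processing of all 6 mice as diamonds. All 6 intervals include 0, and the crosses reach below 0 for *Cps1* and *Glud1*.

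The 95% intervals, unadjusted for the number of genes, give the folds that these 6 arrays did not exclude for each enzyme. The upper limit of the fold lay between 1.26 for *Cps1* and 1.71 for *Otc*, and the lower limit between 0.846 for *Cps1* and 0.972 for *Otc*. For the other 4 enzymes the upper limits were 1.43 (*Asl* and *Arg1*), 1.44 (*Nags*) and 1.46 (*Glud1*).

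Leaving out 1 mouse at a time changed these counts for 2 of the controls. Without control B256, 0 of the 6 passed an unadjusted p under 0.05 (4.34% of all genes did) and 3 had groups that did not overlap (18.5%). Without control B267 the counts were 1 (*Otc*, beside 3.78%) and 1 (16.5%), and without control B302 they were 0 (3.74%) and 0 (18.1%). With a mutant mouse left out, 0 of the 6 were past either mark. The backgrounds were then 3.52% and 17.6% without B253, 1.95% and 14.3% without B304, and 2.85% and 15.3% without B305.

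The spread of the 6 mRNAs within each genotype is described here without a test. The range of the 3 mutant values was narrower than that of the 3 control values for 6 of the 6 genes, beside 56.8% of all genes, and was widest in *Nags* (0.44 against 0.50). All 3 mutant values lay above the control mean for 5 of the 6, the exception being *Nags*, beside 17.4% of all genes. They lay wholly inside the control range for 3 of the 6 (*Cps1*, *Arg1* and *Glud1*), beside 26.1% of all genes. Averaged over the 6 enzymes and taken relative to the control mean, the log2 signal was 0.26 in mutant B253, 0.14 in B304 and 0.10 in B305, and 0.12 in control B256, -0.01 in B267 and -0.12 in B302. Control B256 thus stood above mutant B305. For the 4 mitochondrial enzymes, this mean was 0.24, 0.19 and 0.10 in the mutant mice and 0.02, 0.03 and -0.06 in the controls. For the 2 cytosolic enzymes it was 0.30, 0.04 and 0.10 in the mutant mice and 0.32, -0.09 and -0.23 in the controls. The mitochondrial means of the genotypes were not separate without *Otc*: for *Nags*, *Cps1* and *Glud1*, a subset taken after the values were seen, the mean was 0.20, 0.13 and 0.02 in the mutant mice and 0.15, -0.08 and -0.08 in the controls, and control B256 lay within the mutant range.

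**Figure D3:**
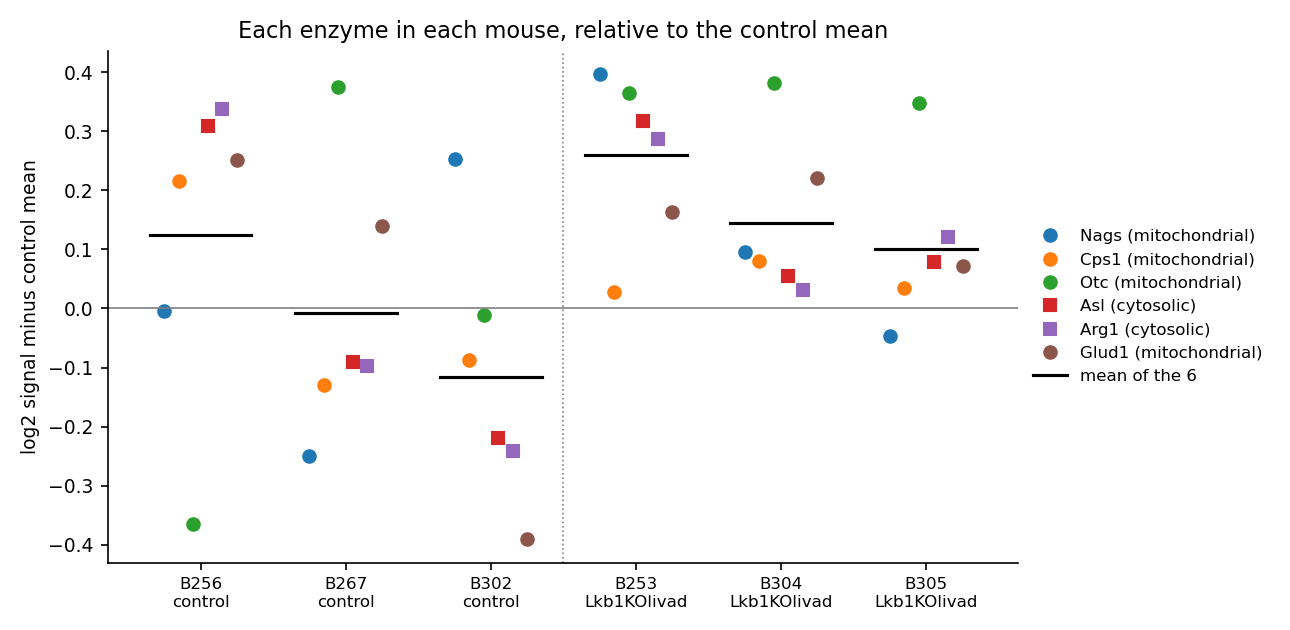
Log2 signal of each enzyme in each mouse minus the control mean of that enzyme, with circles for mitochondrial and squares for cytosolic enzymes and a black bar for the mean of the 6. The bars stand at 0.10 to 0.26 in the mutant mice and at -0.12 to 0.12 in the controls, and within control B256 *Otc* lies lowest while *Asl* and *Arg1* lie highest.

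The enzymes did not all follow each other from mouse to mouse. Over the 6 arrays, *Asl* and *Arg1* had a Pearson r of 0.991 (Spearman rho of 0.943). *Cps1* came next to them, with an r of 0.806 with *Arg1* and 0.779 with *Asl*, and *Glud1* had an r of 0.572 to 0.736 with these 3. *Otc* had an r of -0.526 with *Cps1* and of -0.229 with *Arg1*, and *Nags* had an r between -0.317 and 0.248 with the other 5. These values are descriptions of 6 arrays normalized together, across both genotypes. The genes whose pattern was most like the mean of the 6 enzymes were *Slc3a1*, a subunit of an amino acid transporter (r of 0.995), *Adk*, adenosine kinase (0.994), and *Rnf40*, a ubiquitin ligase (0.988), each with a Spearman rho of 1.0. The log2 fold change of *Slc3a1* was 0.54. In all, 52 of the 19932 other genes (0.261%) had an r of at least 0.95.

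Around these enzymes, 67 of 74 listed genes of nitrogen handling were measured, and limma called 0 at an adjusted p under 0.05, where 0.00502% of all genes were. At an unadjusted p under 0.05, 4 were higher in the mutant livers, where 1.52% of all genes were, and 0 were lower, where 1.51% were. Their median log2 fold change was 0.10, with 47 of the 67 (70.1%) above 0. The unadjusted count moved with single mice, as did the share of all genes. It was 2 without mutant B253 (beside 3.52% of all genes) and 2 without mutant B304 (1.95%). Without mutant B305 it was 7 (2.85%), and without control B256 it was 10 (4.34%). *Ass1* was not analysed here, since its probe sets carry the names of 2 genes. *Arg2*, the mitochondrial arginase, had a log2 fold change of -0.04 ± 0.19 (SE), with signals of 4.13 in mutant B253, 3.90 in B304 and 4.48 in B305, and 4.51 in control B256, 4.05 in B267 and 4.05 in B302.

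Among the 16 carriers that move the substrates of the cycle, the median log2 fold change was 0.09. Of the 16, 11 lay above 0, where 51.6% of all genes did, and 1 was higher at an unadjusted p under 0.05, where 1.52% were. This was *Slc25a2*, an ornithine carrier, at 0.34 ± 0.12 (SE), with low mean signals of 4.57 in the mutant and 4.23 in the control mice and no overlap. *Slc25a15*, the main ornithine carrier of liver mitochondria, had a log2 fold change of 0.43 ± 0.23 (SE). Its signals were 10.49 in mutant B253, 10.36 in B304 and 10.12 in B305, and 10.37 in control B256, 9.39 in B267 and 9.93 in B302, so the groups overlapped. *Slc7a2*, which takes up arginine and other cationic amino acids, had 0.30 ± 0.19 (SE), and *Slc25a13*, the aspartate and glutamate carrier citrin, had 0.16 ± 0.12 (SE).

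The 9 measured enzymes that release ammonia had a median of 0.15, as did the 6 enzymes above. Of the 9, 2 were higher at an unadjusted p under 0.05, where 1.52% of all genes were. *Cth*, which forms cysteine and ammonia from cystathionine, had log2 signals of 10.38 to 10.68 in the mutant and 9.80 to 10.26 in the control mice, a log2 fold change of 0.44 ± 0.15 (SE). *Amt*, of the glycine cleavage system, had a log2 fold change of 0.46 ± 0.19 (SE), and *Gldc*, the decarboxylase of the same system, one of 0.40 ± 0.21 (SE). *Ada*, which removes ammonia from adenosine, had one of -0.25 ± 0.13 (SE). The 12 genes that supply glutamate and aspartate or handle fumarate had a median of 0.17, with 10 above 0, beside 51.6% of all genes. Of the 12, 1 (*Prodh2*, hydroxyproline dehydrogenase, at 0.35) was higher at an unadjusted p under 0.05, beside 1.52% of all genes. *Fh1*, fumarase, had 0.30 ± 0.16 (SE), *Got1*, the cytosolic aspartate aminotransferase, 0.37 ± 0.22 (SE), and *Aldh4a1*, a dehydrogenase of proline breakdown, 0.24 ± 0.14 (SE).

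The other lists of the pathway gave no gene at an unadjusted p under 0.05, which 3.03% of all genes passed. The median was 0.07 over 9 genes for other uses of arginine and ornithine, where *Agmat*, agmatinase, had 0.32 ± 0.17 (SE), and 0.10 over 7 mitochondrial partners such as *Car5a*, the carbonic anhydrase that provides bicarbonate to Cps1 (0.14, standard error 0.12). It was 0.04 over 12 transcription factors and receptors known to act on urea cycle genes, with 7 above 0, beside 51.6% of all genes. Those named here are the 4 with the smallest unadjusted p from limma. Of these, *Ppargc1a*, a coactivator induced by fasting, had log2 signals of 8.24 in mutant B253, 9.23 in B304 and 9.24 in B305, and 8.33 in control B256, 8.22 in B267 and 8.48 in B302. B304 and B305 stood above the other 4 mice, and the log2 fold change was 0.56 ± 0.25 (SE). *Foxa2* had -0.24 ± 0.11 (SE), with all 3 mutant values below the controls, *Cebpa* -0.31 ± 0.17 (SE) and *Foxa1* -0.20 ± 0.13 (SE).

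**Figure D4:**
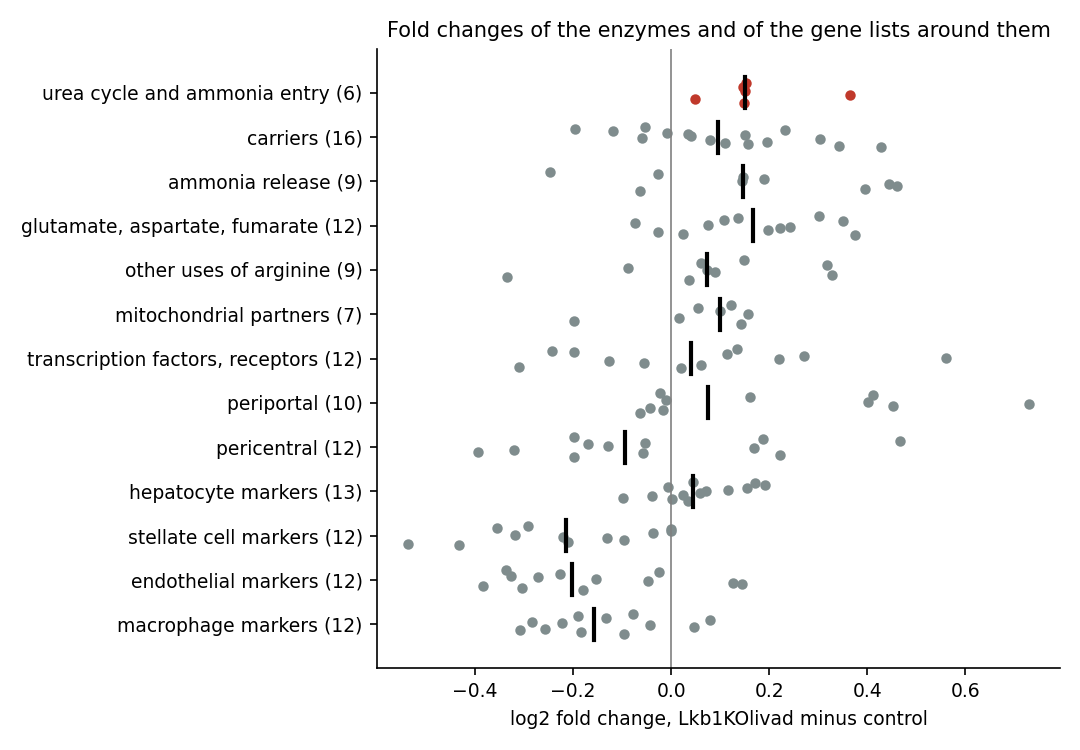
Log2 fold change (mutant minus control) of each measured gene in the list of the 6 enzymes (red) and in the lists around it (grey), 1 point per gene, with the median of each list as a black bar and the number of genes in brackets. The medians run from -0.22 for the stellate cell markers to 0.17 for the supply of glutamate, aspartate and fumarate, and that of the 6 enzymes is 0.15.

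The urea cycle is a function of periportal hepatocytes, while glutamine synthetase captures the remaining ammonia around the central vein. *Glul*, which encodes it, had log2 signals of 10.44 in mutant B253, 10.45 in B304 and 10.44 in B305, and 10.87 in control B256, 10.68 in B267 and 10.38 in B302, a log2 fold change of -0.20 ± 0.14 (SE). The mutant values were again nearly level and lay inside the control range. The 10 measured periportal genes had a median of 0.08, with 5 above 0 (beside 51.6% of all genes) and values from -0.06 to 0.73. Of these genes, 1 was higher at an unadjusted p under 0.05 (beside 1.52% of all genes), namely *Aldh1b1*, a mitochondrial aldehyde dehydrogenase. Its log2 signals were 7.62 to 8.04 in the mutant and 6.62 to 7.37 in the control mice, with a log2 fold change of 0.73 ± 0.20 (SE). *Cyp2f2*, a periportal cytochrome P450, had 0.45 ± 0.21 (SE). The 12 pericentral genes had a median of -0.09, with 4 above 0, the highest being *Rgn* at 0.47. At an unadjusted p under 0.05, 1 was lower (*Cyp1a2*, a cytochrome P450, at -0.39), where 1.51% of all genes were. By limma, 0 genes of these 2 lists were called at an adjusted p under 0.05.

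Markers of several other liver cell types had medians below 0, whereas that of the 6 enzymes was above it. Of 12 stellate cell markers 0 had a log2 fold change above 0 (median -0.22), where 51.6% of all genes did. Of the 12, 3 were lower at an unadjusted p under 0.05, where 1.51% of all genes were. Among the 3 was *Lrat*, which stores retinol as esters, at -0.43 ± 0.14 (SE). The mean per mouse of the 12, relative to the control mean, was -0.35 to -0.11 in the mutant and -0.12 to 0.11 in the control mice. Of 12 sinusoidal endothelial markers 2 lay above 0 (median -0.20), with means of -0.19 to -0.11 against -0.15 to 0.23. Of 12 macrophage markers 2 lay above 0 (median -0.16), with means of -0.36 to 0.06 against -0.40 to 0.20. The 13 hepatocyte markers had a median of 0.05 with 10 above 0. Their mean was 0.19 in mutant B253, 0.02 in B304 and -0.04 in B305. It was 0.15 in control B256, -0.02 in B267 and -0.14 in B302. As for *Asl* and *Arg1*, B253 and B256 were the highest and B302 the lowest. Markers of lymphocytes had a median of -0.06, of cholangiocytes 0.02, of neutrophils 0.07 and of red cells -0.01. The part of these markers in the differences of the 6 enzymes was not tested.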

How the data were processed

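Liver RNA of 3 Lkb1KOlivad and 3 control mice was measured on 1 array per mouse, with groups from the genotype labels and no sample left out. The deposited values are log2 RMA signals, which the authors made with RMA (background correction, normalization between arrays and summary into probe sets); the labels name RMA and Partek, without versions. They were used as deposited. Of 35556 probe sets, 21789 had 1 gene symbol in the platform annotation, 1621 had several and 12146 had none; 21698 symbols were found by gene identifier in a RefSeq table, and the brightest probe set per gene gave 19938 genes. The annotation is for an earlier array generation than the methods name. Groups were compared with limma 3.58.1 in R 4.3.3 (lmFit, eBayes, no covariate, two-sided, Benjamini-Hochberg over all genes, threshold 0.05), tested on simulated data. Single genes also had an exact permutation test. Figures used matplotlib 3.10.9. Alternatives were quantile normalization, median centring, leaving out dim genes, probe set means, array weights, an intensity trend fitted robustly, a block for the series of mouse numbers (two-hundreds or three-hundreds), the methods' t-test, and leaving out each mouse. The test of the difference between series was added after seeing the data. Genes named are *Stk11*, the 6 enzymes, genes with the smallest p of the lists (up to 4 each) and the 3 closest in pattern. The members and lists were chosen with earlier results of these data known. The number of arrays limits the precision.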

Additional observations from a re-analysis of the deposited data

How the results depend on the processing

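With other processing of all 6 mice or with 1 mouse left out, the 6 enzymes were refitted 84 times over 14 alternatives; 82 kept the direction, 2 reversed and 0 were called (lowest adjusted p = 0.968 from limma, in the fit blocked on mouse number series). The 2 reversals were *Cps1* at -0.017 without control B267 and *Glud1* at -0.043 without control B302. Leaving out dim genes, probe set means, the intensity trend and the methods' t-test could not move these log2 fold changes. Each enzyme had 1 probe set, so the direction was fixed in those settings and only the error changed. Leaving out each mouse gave log2 fold changes of 0.02 to 0.27 for *Nags*, -0.02 to 0.16 for *Cps1*, 0.18 to 0.55 for *Otc*, 0.04 to 0.30 for *Asl*, 0.03 to 0.31 for *Arg1* and -0.04 to 0.28 for *Glud1*. The median of the 6 was then 0.033 (without control B302) to 0.23, with 0.24 in the fit blocked on series and 0.30 within the three-hundreds. Within single series, *Nags* had 0.52 in the two-hundreds and -0.23 in the three-hundreds, *Cps1* -0.016 and 0.14, and *Glud1* -0.03 and 0.54. Over the mice left out, 0 to 1 of the 6 passed an unadjusted p of 0.05 and 0 to 3 had groups that did not overlap. Of the pathway genes, 2 to 10 passed the unadjusted threshold. The share of all genes that passed it was 1.95% to 4.34%, and 14.3% to 18.5% had groups that did not overlap. That pathway count was 2 without the dim genes, 2 in the methods' t-test and 7 in the fit blocked on series. *Stk11* had -1.71 to -1.57 with a mouse left out and -1.51 within the three-hundreds. It had adjusted p = 0.566 in the methods' t-test, at -1.64. Over all genes, 0 were called in the methods' t-test and 0 to 1 with a mouse left out.

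No paired analysis was possible because the labels give mouse numbers and no replicate numbers shared by the groups. Background correction was not repeated here, since raw array files were not used. The 95% intervals are not adjusted for the number of genes and are no detection limits.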
